A study of Rattus norvegicus with 9 samples.

Results

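Cadherins and protocadherins are calcium-dependent adhesion molecules of the cell surface, and 33 genes with a symbol that begins with Cdh or Pcdh were measured here among 14506 genes with a feature of their own. Of the 33, 17 are cadherins or cadherin-related genes (Cdh and Cdhr) and 16 are protocadherins (Pcdh). A gene with several features would be represented by that of highest mean level in the 9 arrays, but none of the 33 had more than 1. A further 3 features name several cadherin or protocadherin genes together and were not counted as members. Cdh3, Cdh4, Cdh11 and Pcdh10 were not analysed here. RefSeq lists 83 rat genes of this naming pattern on the GRCr8 assembly, so the 33 are part of the family.

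The cells came from adult Sprague Dawley rats, and RNA was taken from cultures. Skin-derived precursors (SKPs) are sphere-forming cells grown from dissociated skin of the dorsal trunk, and SKP-derived Schwann cells are the cells obtained after SKP spheres were plated in a medium that favours Schwann cells. Nerve Schwann cells were grown in the same kind of medium from dissociated sciatic nerve. There were 3 arrays of SKP-derived Schwann cells, 3 of nerve Schwann cells and 3 of SKPs, described by the submitters as independent samples. Schwann cells of both origins were passaged once and taken at confluence, whereas SKPs were taken as floating spheres after 1 or 2 passages, so cell identity and culture form (attached or sphere) cannot be told apart in a comparison with SKPs. The tissue label reads dermis for all samples, nerve included, and the 3 SKP arrays are labelled as a reanalysis of earlier submissions, so that any effect of that earlier work cannot be told apart from the SKP group.

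Values are log2 probe-set levels, on which a difference of 1 is a doubling of signal. In the deposited scale the median of all 29214 features was 6.33 to 6.44 in the SKP-derived arrays, 6.82 to 6.87 in the nerve arrays and 6.20 to 6.27 in the SKP arrays. A member was therefore said to rise or fall only where limma gave a Benjamini-Hochberg adjusted p below 0.05, over all 14506 genes, with the same sign both in the deposited scale and after cyclic loess, a normalization that pulls the arrays onto a common scale. Differences are given in the deposited scale, with the loess difference beside those of the members and partner genes that were called. In nerve arrays 598 features, among them that of Cdh17, held the same value in all 3 arrays, which occurred for 0 features in the other groups, and the spread of nerve arrays was low in general: the median SD of the members was 0.42 in SKP-derived cells, 0.13 in nerve cells and 0.29 in SKPs. Without Cdh19, itself a Schwann cell marker, the 4 other measured markers (Sox10, Erbb3, S100b and Ngfr) had a mean level after loess of 10.54 to 11.70 in SKP-derived arrays, 11.43 to 11.59 in nerve arrays and 6.01 to 6.56 in SKP arrays. Among 7 markers of SKPs and dermal mesenchyme, the mean level was 8.17, 10.04 and 8.91 in SKP-derived arrays 1, 2 and 3, 8.48 to 9.68 in nerve arrays, and 12.55, 12.51 and 10.63 in SKP arrays 1, 2 and 3. Their summed linear level was 6335 to 10316 in SKP-derived arrays, 8657 to 13743 in nerve arrays and 14663 to 48225 in SKP arrays. SKP-derived array 2 thus stood highest of its group on the mesenchymal list and SKP array 3 lowest of its group. SKP array 1 stood highest on a list of 7 macrophage markers, at 7.84 against 5.25 to 6.48 in the other arrays.

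Cadherins bind like partners on neighbouring cells through their extracellular repeats, and the classical types I and II attach to actin through catenins on their cytoplasmic tail. Protocadherins carry other tails, do not bind catenins in the classical way, and fall into scattered, non-clustered genes and a clustered set that lies in tandem. In Schwann cells, N-cadherin (Cdh2) is known from contacts with axons and between Schwann cell precursors, E-cadherin (Cdh1) from the junctions that a myelinating Schwann cell makes with itself, and Cdh19 as a gene of the Schwann cell precursor.

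Counted over the 33 members, 10 rose and 3 fell in SKP-derived Schwann cells relative to SKPs, and 11 rose and 3 fell in nerve Schwann cells relative to SKPs. The called share of members was 39.4% in SKP-derived cells minus SKPs, beside a background of 39.1% of all 14506 genes, and 42.4% in nerve cells minus SKPs, beside 37.2% of all genes. The family as a whole was thus called about as often as any gene, and what follows is a description of which members moved and how far. By direction, 17.7% of all genes rose and 21.4% fell in SKP-derived cells, while 22.4% rose and 14.9% fell in nerve cells. The median difference of the members was 0.47 (0.37 after loess) for SKP-derived cells minus SKPs, against -0.01 (-0.03) for all genes, and 0.78 (0.12 after loess) for nerve cells minus SKPs, against 0.46 (-0.03) for all genes. These comparisons share the same 3 SKP arrays, so their values are given side by side and are not independent of each other. The groups of arrays did not overlap in the deposited scale for 14 of the 33 members (42.4%) in SKP-derived cells and SKPs, where 47.9% of all genes did not, and for 25 (75.8%) in nerve cells and SKPs, where 73.5% of all genes did not. In bulk RNA, fewer cells that express a gene and less RNA per cell cannot be told apart.

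**Figure D1:**
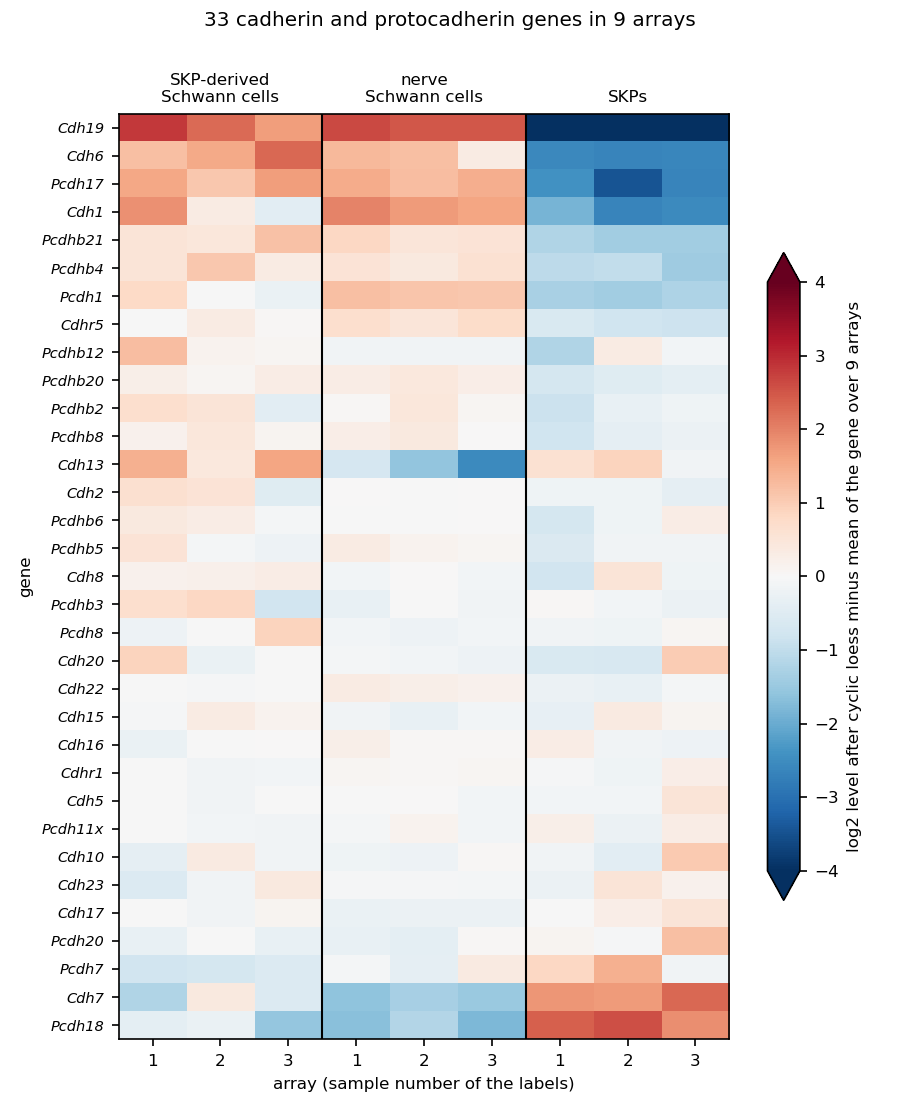
Heat map of the 33 cadherin and protocadherin genes (rows, sorted by the difference of SKP-derived Schwann cells and SKPs) in 9 arrays (columns), coloured by the log2 level after cyclic loess minus the gene's mean over the 9 arrays. Cdh19, Cdh6, Pcdh17 and Cdh1 are blue in all 3 SKP arrays, Cdh7 and Pcdh18 are red there, and Cdh13 is blue in the 3 nerve arrays.

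Among the 3 type I cadherins measured, which hold epithelial, neural and muscle cells together, only Cdh1 was called. This is 33.3% in each comparison with SKPs, beside 39.1% and 37.2% of all genes. E-cadherin (Cdh1) read 9.28, 7.72 and 7.10 in SKP-derived Schwann cells, 9.76, 9.55 and 9.43 in nerve Schwann cells, and 5.61, 4.82 and 4.96 in SKPs. All 6 Schwann cell arrays lay above all 3 SKP arrays, and the SKP-derived arrays were spread widest, with an SD of 1.12 that was the largest of any member in that group. Cdh1 rose by 2.91 (SE 0.47) in SKP-derived cells over SKPs, a 7.50-fold difference, with limma adjusted p = 0.001 and a loess difference of 2.93. In nerve cells it rose by 4.45 over SKPs, a 21.9-fold difference, with limma adjusted p = 6.78e-05 and a loess difference of 4.10. The Cdh1 values of SKP arrays 2 and 3 lay near the lower quartile of all features there (4.88 and 4.81). Both folds therefore rest partly on the low end of the scale. Of 10 keratinocyte and epithelial markers, a list that holds Cdh1 itself, 6 were measured, and their summed linear level was 338 to 822 in SKP-derived arrays, 996 to 1194 in nerve arrays and 333 to 583 in SKP arrays. Of the other markers on that list, Krt14 averaged 5.65 in SKP-derived cells, 6.05 in nerve cells and 5.76 in SKPs, and Krt14, Krt15, Krt18 and Epcam passed the test in neither comparison with SKPs, while Dsc3, the remaining marker, fell in both, opposite to Cdh1. Melanocytes also carry Cdh1, and the mean loess level of the 4 melanocyte markers measured, of 6 listed, was 6.94, 6.43 and 6.03 in SKP-derived arrays 1, 2 and 3, 5.46 to 5.58 in nerve arrays and 6.21 to 7.05 in SKP arrays. Their summed linear level was 387 to 1268 in SKP-derived arrays, 285 to 366 in nerve arrays and 965 to 1416 in SKP arrays. The order of SKP-derived arrays on this list was that of Tyrp1, at 9.94, 7.29 and 6.30, whereas Mitf read 7.83, 7.92 and 8.0, and the part of either in the spread of Cdh1 was not tested.

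N-cadherin (Cdh2), the main cadherin of neural tissue, read 9.48, 9.26 and 8.47 in SKP-derived cells, 9.08, 9.09 and 9.17 in nerve cells, and 8.67, 8.61 and 8.53 in SKPs. The nerve arrays lay above all SKP arrays, but SKP-derived array 3 lay below them. The difference from SKPs was 0.47 in SKP-derived cells, with a 95% interval of -0.05 to 0.98 and limma adjusted p = 0.131. In nerve cells it was 0.51, with an interval of -0.01 to 1.02, limma adjusted p = 0.0779 and a loess difference of 0.24. Without SKP-derived array 3 the first difference was 0.77 and passed the test, with adjusted p = 0.00263. The muscle cadherin Cdh15 (M-cadherin) averaged 6.38 in SKP-derived cells, 6.58 in nerve cells and 6.19 in SKPs, and passed in neither comparison.

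Of the 8 type II cadherins measured, 2 rose and 1 fell in SKP-derived cells, and 3 rose and 1 fell in nerve cells. These are 37.5% and 50% called, beside 39.1% and 37.2% of all genes. Cdh19 had the largest difference of any member in both comparisons with SKPs. Cdh19 read 11.08, 10.39 and 10.02 in SKP-derived Schwann cells, 11.13, 11.03 and 11.07 in nerve Schwann cells, and 3.78, 3.21 and 3.45 in SKPs. No SKP array came within 6 log2 units of any Schwann cell array. The rise over SKPs was 7.02 (SE 0.25) in SKP-derived cells, with limma adjusted p = 4.26e-07 and a loess difference of 7.04. In nerve cells it was 7.60, with limma adjusted p = 2.17e-07 and a loess difference of 7.32. In both comparisons, and on both scales, Cdh19 ranked 2 from the highest difference among 14506 genes. Its SKP values lay below the lower quartile of all features on those arrays (4.80 to 4.88), where the files give no measure of background, so no fold is given and the size of the difference rests partly on that low end of the scale.

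Cdh6, a type II cadherin known from kidney and from the neural crest, read 9.14, 9.36 and 10.35 in SKP-derived cells, 9.53, 9.51 and 8.66 in nerve cells, and 5.39, 5.32 and 5.41 in SKPs. The SKP arrays agreed closely (SD 0.048), and no Schwann cell array overlapped them. Cdh6 rose by 4.25 (SE 0.32) in SKP-derived cells over SKPs, with limma adjusted p = 1.52e-05 and a loess difference of 4.28. Nerve cells exceeded SKPs by 3.86, with limma adjusted p = 2.38e-05 and a loess difference of 3.56.

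Cdh7 went the opposite way. This type II cadherin, known in chick from migrating neural crest cells, read 4.41, 6.05 and 4.92 in SKP-derived cells, 4.60, 4.85 and 4.69 in nerve cells, and 7.22, 7.19 and 7.72 in SKPs. Every SKP array lay above every Schwann cell array. SKP-derived array 2, the highest of its group, was also the array of that group with the highest mesenchymal marker level, and whether the 2 are linked was not tested. Cdh7 fell by 2.25 (SE 0.36) in SKP-derived cells, with limma adjusted p = 0.00091 and a loess difference of -2.36. In nerve cells it fell by 2.66, with limma adjusted p = 0.000231 and a loess difference of -3.39. Its nerve values lay below the lower quartile of all features on those arrays (5.54 to 5.59). The size of that fall rests partly on the low end of the scale. Cdh7 and Cdh19 are neighbours on rat chromosome 13 in the GRCr8 assembly, with 0 protein-coding genes between them, and they moved in opposite directions in both comparisons. Cdh20 lies on the same chromosome with 25 protein-coding genes between it and Cdh7. It read 6.88, 5.77 and 5.85 in SKP-derived cells, 6.47, 6.40 and 6.29 in nerve cells, and 5.24, 5.24 and 6.83 in SKPs, where array 3 stood apart. Its difference of 0.40 in SKP-derived cells over SKPs did not pass the test, whereas without SKP array 3 it was 0.93 with adjusted p = 0.0477.

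Cdh22 was called in 1 of these comparisons. It read 6.47, 6.45 and 6.39 in SKP-derived cells, 7.28, 7.18 and 7.13 in nerve cells, and 6.14, 6.11 and 6.29 in SKPs. The rise in nerve cells over SKPs was 1.01 in the deposited scale and 0.45 after loess, with limma adjusted p = 0.000116 and 0.00839, and in SKP-derived cells the difference was 0.25 with limma adjusted p = 0.114. The endothelial cadherin Cdh5 (VE-cadherin) averaged 5.47 in SKP-derived cells, 6.11 in nerve cells and 5.51 in SKPs. Its difference of 0.60 in nerve cells over SKPs had the opposite sign after loess, at -0.14, and was not called. For 9 of 10 endothelial markers the mean level after loess was 5.58 to 5.77 in SKP-derived arrays, 5.68 to 5.73 in nerve arrays and 5.52 to 5.71 in SKP arrays. Cdh10, a type II cadherin of neurons, averaged 3.89 in SKP-derived cells, 4.42 in nerve cells and 4.15 in SKPs, and SKP array 3 held its highest value at 5.02. Cdh8, also neuronal, averaged 3.95 in SKP-derived cells, 4.23 in nerve cells and 3.68 in SKPs. Neither was called in a comparison with SKPs, though without SKP array 2 Cdh8 passed in SKP-derived cells at 0.61 with adjusted p = 0.0304.

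**Figure D2:**
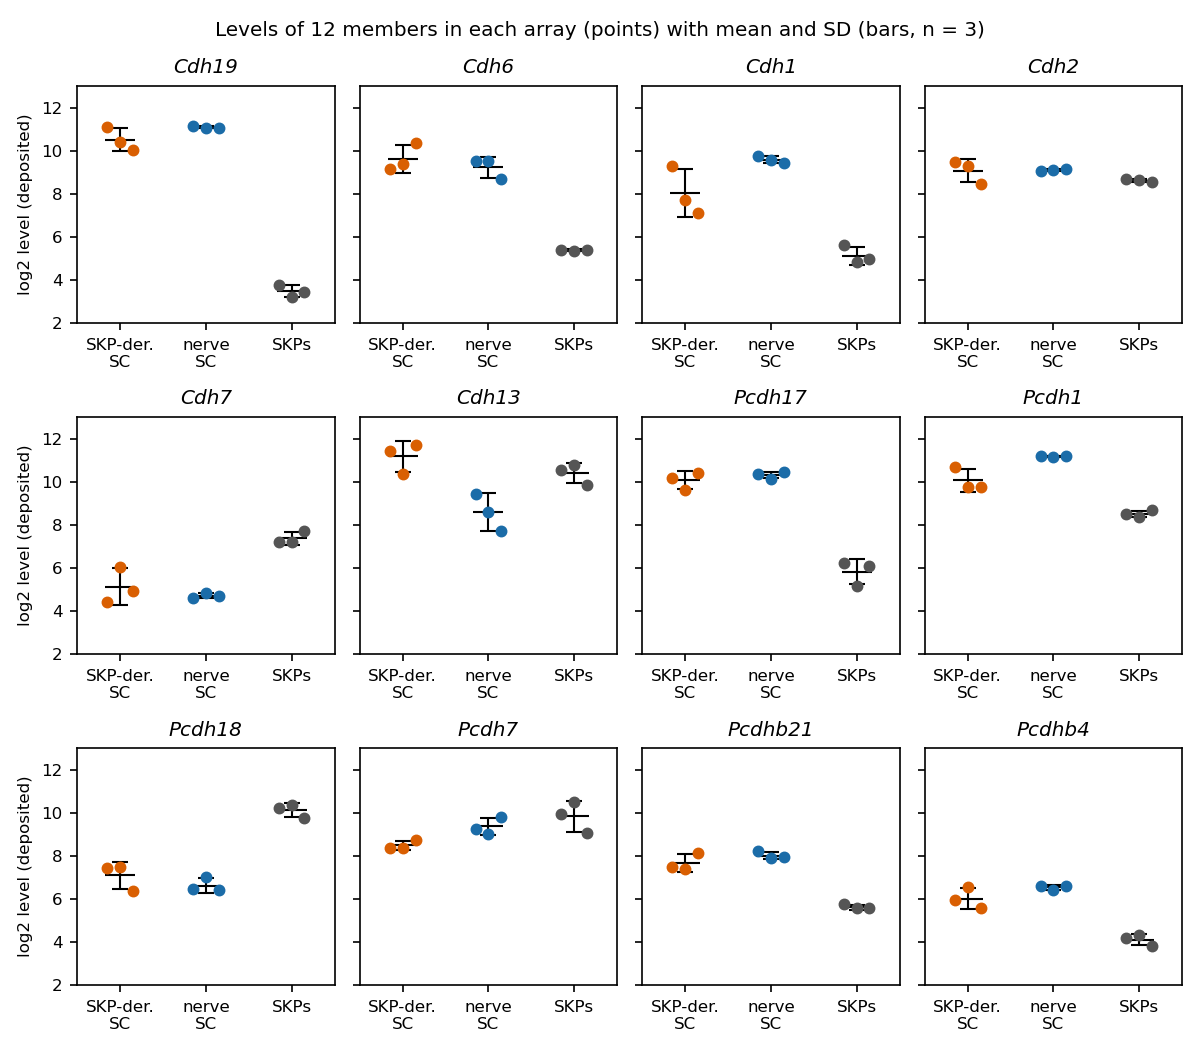
Deposited log2 level (vertical axis) of 12 members in each array (points, 3 per group), with the group mean and SD (bars), for SKP-derived Schwann cells, nerve Schwann cells and SKPs from left to right. Cdh19, Cdh6, Cdh1 and Pcdh17 show a clear step down to the SKPs, Cdh7 and Pcdh18 a step up, and Cdh13 has its lowest points in the nerve arrays.

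Of 6 atypical and cadherin-related genes, 2 were called in a comparison with SKPs. The called share was 16.7% in SKP-derived cells and 33.3% in nerve cells, beside 39.1% and 37.2% of all genes. Cdh13 (T-cadherin) lacks a transmembrane domain and a cytoplasmic tail, is held in the membrane by a lipid anchor, and also binds adiponectin. It read 11.42, 10.36 and 11.72 in SKP-derived Schwann cells, 9.45, 8.58 and 7.69 in nerve Schwann cells, and 10.55, 10.77 and 9.87 in SKPs. The nerve arrays lay below every other array, and the SKP-derived arrays overlapped the SKP arrays. Cdh13 fell by 1.82 (SE 0.48) in nerve cells relative to SKPs, with limma adjusted p = 0.00773 and a loess difference of -2.05. In SKP-derived cells the difference from SKPs was 0.77, with a 95% interval of -0.30 to 1.84 and limma adjusted p = 0.222.

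Cdhr5, a cadherin-related protein of intestinal and kidney microvilli, read 6.32, 6.68 and 6.30 in SKP-derived cells, 7.50, 7.29 and 7.56 in nerve cells, and 5.60, 5.46 and 5.38 in SKPs. The 3 groups did not overlap. It rose by 0.95 in SKP-derived cells over SKPs, with limma adjusted p = 0.000896 and a loess difference of 0.86. In nerve cells it rose by 1.97, with limma adjusted p = 1.48e-05 and a loess difference of 1.37. Cdh16 of kidney, Cdh17 of liver and intestine, Cdh23 of the hair cell tip link and Cdhr1 of photoreceptors were not called against SKPs, with differences of -0.28 to 0.02 in SKP-derived cells (loess -0.27 to -0.07) and 0.13 to 0.87 in nerve cells. After loess the nerve differences were -0.49 to 0.12, and those of Cdh17 and Cdh23 changed sign. Without SKP array 1, Cdh17 passed in SKP-derived cells at -0.42 with adjusted p = 0.0472.

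Of the 7 non-clustered protocadherins, 2 rose and 2 fell in SKP-derived cells, and 2 rose and 1 fell in nerve cells. These are 57.1% and 42.9% called, beside 39.1% and 37.2% of all genes. Pcdh17, known from synapses and axons in the brain, read 10.18, 9.60 and 10.42 in SKP-derived Schwann cells, 10.35, 10.14 and 10.43 in nerve Schwann cells, and 6.22, 5.15 and 6.07 in SKPs. Its Schwann cell arrays all lay more than 3 log2 units above the SKP arrays. Pcdh17 rose by 4.26 (SE 0.29) in SKP-derived cells, a 19.1-fold difference, with limma adjusted p = 9.23e-06 and a loess difference of 4.26. The rise in nerve cells was 4.50, a 22.6-fold difference, with limma adjusted p = 6.91e-06 and a loess difference of 4.23.

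Pcdh1, an adhesion protein of airway epithelium and other tissues, read 10.67, 9.76 and 9.75 in SKP-derived cells, 11.20, 11.16 and 11.18 in nerve cells, and 8.51, 8.36 and 8.66 in SKPs. The order of the 3 groups held in every array. It rose by 1.55 in SKP-derived cells over SKPs, with limma adjusted p = 0.000666 and a loess difference of 1.48. In nerve cells it rose by 2.67, with limma adjusted p = 2.8e-05 and a loess difference of 2.44.

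Pcdh18 read 7.43, 7.46 and 6.36 in SKP-derived cells, 6.44, 7.0 and 6.42 in nerve cells, and 10.23, 10.37 and 9.76 in SKPs. It was the member that fell furthest in both comparisons with SKPs. Pcdh18 fell by 3.04 (SE 0.31) in SKP-derived cells, with limma adjusted p = 7.96e-05 and a loess difference of -3.0. In nerve cells Pcdh18 fell by 3.50, with limma adjusted p = 3.12e-05 and a loess difference of -3.82. Pcdh7 read 8.38, 8.34 and 8.73 in SKP-derived cells, 9.25, 9.03 and 9.80 in nerve cells, and 9.94, 10.50 and 9.05 in SKPs, so that nerve and SKP arrays overlapped and SKP-derived arrays lay lowest. It fell by 1.34 in SKP-derived cells, with limma adjusted p = 0.0112 and a loess difference of -1.37. The difference of -0.47 in nerve cells did not pass, with limma adjusted p = 0.252, whereas without SKP array 3 it was -0.86 with adjusted p = 0.0184. Pcdh20 averaged 4.89 in SKP-derived cells, 5.54 in nerve cells and 5.42 in SKPs, where array 3 was again highest at 6.17, and it was not called, nor were Pcdh8 and Pcdh11x.

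The 9 clustered protocadherins measured all belong to the beta cluster, a row of related single-exon genes on rat chromosome 18 whose products, known mainly from neurons, are thought to give cells a surface identity. Because the beta genes resemble each other, array features may not fully separate them. Promoters of clustered protocadherins are known to share a conserved element with a CGCT core. The longest word shared by the RefSeq promoters (GRCr8, 250 bases before to 50 after the gene start) of all 9 beta members had 10 bases, GGTGGCGCTG, and holds that core. Its presence in the 9 follows from how it was chosen. Searched on both strands, it was found in 0 of the 18 other members with a promoter in that table and in 74 of all 33469 promoters (0.221%). Outside genes named as clustered protocadherins it was found in 59 of 33434 promoters (0.176%). Within them it was found in 15 of 35 (42.9%), which include the 9 beta members it was chosen from. The windows show the word chosen from the 9 beta members, which the 18 other members searched lack in these promoters. The remaining members had no promoter in that table and were not searched. Each window is 50 bases on the plus strand with the word in capitals.
Pcdhb2, chr18:29279913-29279962: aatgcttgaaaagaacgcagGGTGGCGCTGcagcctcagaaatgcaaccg
Pcdhb3, chr18:29285594-29285643: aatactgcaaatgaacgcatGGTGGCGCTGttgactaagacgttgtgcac
Pcdhb4, chr18:29292201-29292250: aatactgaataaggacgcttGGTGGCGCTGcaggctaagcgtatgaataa
Pcdhb5, chr18:29302394-29302443: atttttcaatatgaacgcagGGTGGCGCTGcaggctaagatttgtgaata
Pcdhb6, chr18:29320142-29320191: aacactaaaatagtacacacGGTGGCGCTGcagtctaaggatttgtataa
Pcdhb8, chr18:29339248-29339297: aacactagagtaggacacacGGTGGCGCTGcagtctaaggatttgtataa
Pcdhb12, chr18:29413638-29413687: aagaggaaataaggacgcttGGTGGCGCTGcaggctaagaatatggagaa
Pcdhb20, chr18:29485800-29485849: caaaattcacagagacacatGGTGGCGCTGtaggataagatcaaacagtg
Pcdhb21, chr18:29492139-29492188: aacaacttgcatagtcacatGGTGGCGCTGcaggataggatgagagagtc

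The word began 52 to 229 bases before the gene start. Because it was chosen as shared by all 9 beta members, its presence cannot be set against which of them rose. Pcdhb21, Pcdhb4, Pcdhb20 and Pcdhb8 rose in both kinds of Schwann cell over SKPs, and 0 of the 9 beta members fell by limma. The called share was 44.4% in each comparison, beside 39.1% and 37.2% of all genes. At an unadjusted p below 0.05 on both scales the count was 5 higher and 0 lower in SKP-derived cells, beside 21.4% and 25.3% of all genes, and 4 higher and 0 lower in nerve cells, beside 25.7% and 16.1%. The median difference of the 9 from SKPs was 0.81 (0.71 after loess) in SKP-derived cells and 1.25 (0.63 after loess) in nerve cells.

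Pcdhb21 read 7.47, 7.37 and 8.13 in SKP-derived Schwann cells, 8.20, 7.87 and 7.94 in nerve Schwann cells, and 5.75, 5.55 and 5.55 in SKPs. It rose by 2.04 in SKP-derived cells (limma adjusted p = 6.92e-05, loess difference 2.02) and by 2.39 in nerve cells (limma adjusted p = 2.6e-05, loess difference 1.94). Pcdhb4 read 5.93, 6.55 and 5.57 in SKP-derived cells, 6.60, 6.39 and 6.60 in nerve cells, and 4.19, 4.31 and 3.81 in SKPs. Neither gene overlapped between Schwann cells and SKPs. Pcdhb4 rose by 1.91 in SKP-derived cells (limma adjusted p = 0.000256, loess difference 1.79) and by 2.43 in nerve cells (limma adjusted p = 5.05e-05, loess difference 1.68). Its SKP values lay below the lower quartile of all features on those arrays (4.80 to 4.88). The size of both rises rests partly on that low end of the scale.

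Pcdhb20 averaged 6.70 in SKP-derived cells, 7.32 in nerve cells and 5.90 in SKPs, and rose by 0.80 in SKP-derived cells and by 1.42 in nerve cells, with loess differences of 0.73 and 0.86. Pcdhb8 averaged 6.44 in SKP-derived cells, 6.94 in nerve cells and 5.63 in SKPs. It rose by 0.81 (loess 0.71) in SKP-derived cells with limma adjusted p = 0.00766, and by 1.31 (loess 0.68) in nerve cells with limma adjusted p = 0.000346 in the deposited scale and 0.0115 after loess. The call in nerve cells was lost without nerve array 2, where the adjusted p was 0.0532. The other 5 beta members were not called in either comparison, with differences of 0.47 to 0.90 in SKP-derived cells (loess 0.36 to 0.81) and 0.71 to 1.25 in nerve cells, where the loess values were -0.05 to 0.63 and that of Pcdhb3 changed sign. Leaving out an array changed some of these outcomes. Without SKP-derived array 3, Pcdhb2 and Pcdhb3 passed in SKP-derived cells at 1.18 and 1.03, and Pcdhb2 passed in nerve cells at 1.25, while Pcdhb5 passed in nerve cells at 1.21 without SKP-derived array 1 and Pcdhb6 passed in SKP-derived cells at 0.74 without SKP array 3.

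**Figure D3:**
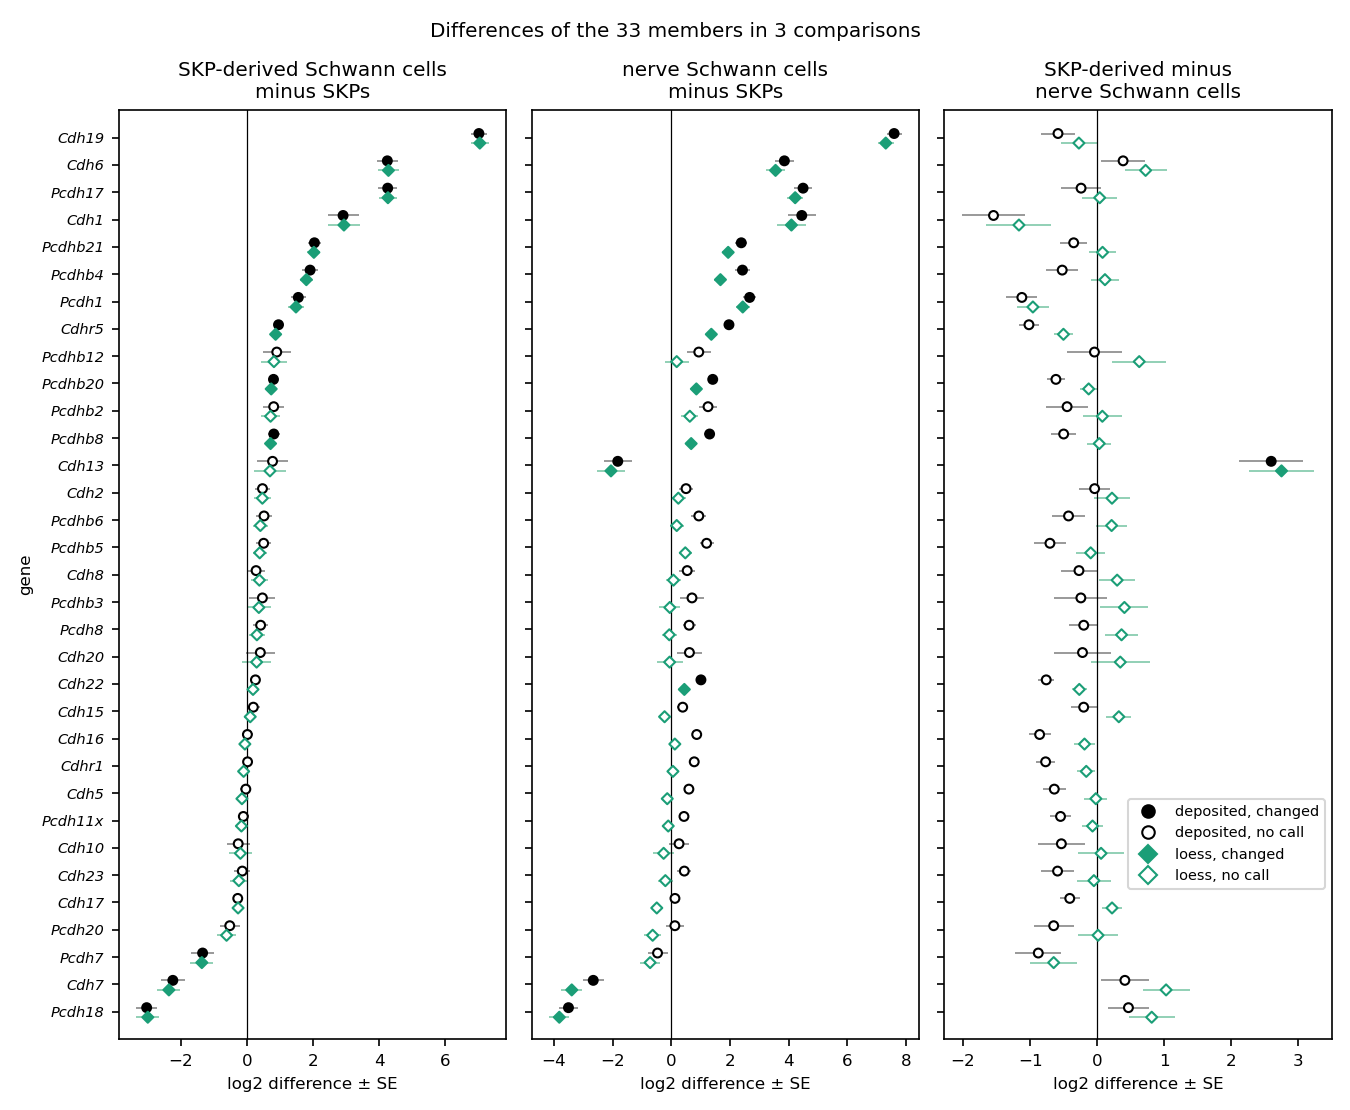
Log2 differences with SE (horizontal axes, each with its own range) for the 33 members (rows) with a panel each for SKP-derived Schwann cells less SKPs, nerve Schwann cells less SKPs, and SKP-derived less nerve cells, in the deposited scale (circles) and after cyclic loess (diamonds). Filled symbols passed the test on both scales, and in the panel of SKP-derived minus nerve cells that is Cdh13 alone.

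SKP-derived and nerve Schwann cells were then compared directly, which asks how far the skin-derived cells differ from Schwann cells of the nerve. Of 33 members, 1 rose and 0 fell by limma in SKP-derived cells (3.03% of the members), beside a background of 1.09% of all genes, of which 0.489% rose and 0.6% fell. At an unadjusted p below 0.05 on both scales 1 member was higher and 4 were lower, beside 2.29% and 10.3% of all genes. In the deposited scale alone 1 member was higher and 11 were lower, and 193 genes were higher and 6140 lower over all genes. The median difference was -0.50 for the members and -0.45 for all genes in the deposited scale, and 0.06 and -0.02 after loess. The arrays did not overlap for 18 of 33 members (54.5%), beside 62.3% of all genes.

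Cdh13 was the called member, and its 3 SKP-derived values, given above, all exceeded its 3 nerve values. The difference was 2.59 (SE 0.48), with a 95% interval of 1.53 to 3.66, a 6.04-fold difference, and ranked 1 from the highest among 14506 genes in the deposited scale and 6 after loess. The limma adjusted p was 0.00401 in the deposited scale and 0.039 after loess, where the difference was 2.75. Cdh13 also had the largest SD of any member in nerve cells, at 0.88. Leaving out any 1 of the 3 SKP-derived arrays, of the 3 nerve arrays, or SKP array 1 or 2, ended the call, with adjusted p of 0.0507 to 0.18 and differences of 2.15 to 3.03. Without the array named, the values were 2.47 (SKP-derived 1), 3.00 (SKP-derived 2), 2.32 (SKP-derived 3), 3.03 (nerve 1), 2.60 (nerve 2) and 2.15 (nerve 3), and 2.59 without SKP array 1 or 2. A block for the sample number also ended the call, with limma adjusted p = 0.0692.

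Several members were lower in SKP-derived than in nerve cells without passing on both scales. Cdh1 differed by -1.55 with limma adjusted p = 0.0261 in the deposited scale, and by -1.17 with 0.224 after loess. Without SKP-derived array 1, whose value of 9.28 stood nearest to nerve cells, the difference of Cdh1 was -2.17 and passed with adjusted p = 0.0367. Pcdh1 differed by -1.12, with limma adjusted p = 0.00613 and 0.081 after loess, and passed without the same array at -1.43 with adjusted p = 0.0127. Cdhr5 differed by -1.02 with limma adjusted p = 0.00235, and by -0.50 with 0.0975 after loess. Without both SKP-derived array 2 and SKP array 3, an alternative chosen after seeing the data, Cdhr5 passed at -1.14 with adjusted p = 0.0461.

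The difference between SKP-derived and nerve cells was -0.58 for Cdh19, with a 95% interval of -1.15 to -0.02 and limma adjusted p = 0.0861, -0.27 being the loess value. For Pcdh17 it was -0.24 with an interval of -0.90 to 0.42 and a loess value of 0.04. For Cdh2 it was -0.04 with an interval of -0.55 to 0.48 and a loess value of 0.22. Larger values after loess were seen for Cdh6 at 0.39 (loess 0.72), Cdh7 at 0.41 (loess 1.03) and Pcdh18 at 0.47 (loess 0.81), and none of these passed. Over all 33 members after loess, the Euclidean distance between a SKP-derived and a nerve array averaged 4.48 (3.63 to 5.73 over 9 pairs). It averaged 11.6 between SKP-derived and SKP arrays and 12.4 between nerve and SKP arrays. Distances within a group averaged 3.88 in SKP-derived cells, 1.88 in nerve cells and 3.47 in SKPs.

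Genes that act with cadherins were described from 5 lists, which together hold 63 measured genes. Of these, 18 rose and 21 fell in SKP-derived cells over SKPs (61.9% called), and 21 rose and 19 fell in nerve cells (63.5% called), beside the 39.1% and 37.2% of all genes called in these comparisons. The lists were chosen with earlier results of these data known, so these shares are descriptions. All of them were compared by the same test. Between SKP-derived and nerve cells 0 genes of any list were called by limma, beside 1.09% of all genes. At an unadjusted p below 0.05 on both scales, 1 of the 63 genes was higher and 8 were lower there, beside 2.29% and 10.3% of all genes.

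Catenins and other proteins at the cadherin tail link it to actin. Of 16 measured, 7 rose and 3 fell in SKP-derived cells over SKPs, and 8 rose and 2 fell in nerve cells, where 17.7% of all genes rose and 21.4% fell in SKP-derived cells, and 22.4% rose and 14.9% fell in nerve cells. Ctnnal1 (alpha-catulin), a relative of alpha-catenin, read 11.58, 11.21 and 11.48 in SKP-derived cells, 11.51, 11.01 and 10.16 in nerve cells, and 6.44, 6.07 and 7.17 in SKPs. Its rise was 4.86 (loess 4.81) in SKP-derived cells and 4.34 (loess 4.09) in nerve cells. Shroom3, which organises actin at apical junctions, rose by 1.87 (loess 1.80) in SKP-derived cells and by 3.20 (loess 2.64) in nerve cells. Afdn (afadin), which links nectins to actin, fell by 2.70 (loess -2.82) in SKP-derived cells and fell by 2.19 (loess -2.89) in nerve cells, and Ctnnd2 (delta-catenin, mainly of neurons) fell by 2.58 (loess -2.61) in SKP-derived cells and fell by 1.99 (loess -2.46) in nerve cells. Afdn averaged 4.89 in SKP-derived cells and 5.40 in nerve cells. The lower quartile of all features was 4.80 to 5.03 in SKP-derived arrays and 5.54 to 5.59 in nerve arrays. The size of the falls of Afdn rests partly on that low end of the scale. Ctnnb1 (beta-catenin) itself was not called, at -0.57 (loess -0.71) in SKP-derived cells and -0.20 (loess -0.41) in nerve cells.

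Regulators of epithelial-mesenchymal transition, in which cells exchange cadherins, moved both ways. The list holds transcription factors and the splicing factors Esrp1 and Esrp2, and of 13 measured, 2 rose and 4 fell in SKP-derived cells, and 4 rose and 4 fell in nerve cells. The called shares were 46.2% and 61.5%, beside 39.1% and 37.2% of all genes. Among those that rose in nerve cells, Esrp1 held the same value, 4.65, in all 3 nerve arrays, as Cdh17 did. That value lay below the lower quartile of all features on those arrays (5.54 to 5.59). Zeb2, which is also required for Schwann cell myelination, read 11.82, 11.40 and 12.02 in SKP-derived cells, 12.21, 12.18 and 12.23 in nerve cells, and 9.36, 9.61 and 9.62 in SKPs, and rose by 2.22 (loess 2.07) in SKP-derived cells and by 2.67 (loess 2.47) in nerve cells. Twist1, a mesenchymal factor, fell by 2.73 (loess -2.70) in SKP-derived cells and fell by 2.81 (loess -3.10) in nerve cells. Snai1 read 6.50, 7.19 and 6.22 in SKP-derived cells, 6.91, 7.35 and 6.81 in nerve cells, and 9.46, 9.56 and 7.73 in SKPs, where array 3 was lowest. It fell by 2.28 (loess -2.26) in SKP-derived cells and fell by 1.89 (loess -2.26) in nerve cells, and Twist2 fell by 2.12 (loess -2.11) in SKP-derived cells.

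Proteases and other genes that cut or turn over cadherins formed the next list. Of its 14 measured, 2 rose and 9 fell in SKP-derived cells, and likewise 2 rose and 9 fell in nerve cells, with a median difference of -1.35 (loess -1.36) in SKP-derived cells and -0.80 (loess -1.10) in nerve cells, against all-gene medians of -0.01 (-0.03) and 0.46 (-0.03). The called share was 78.6% in each comparison, beside 39.1% and 37.2% of all genes. Mmp3 (stromelysin), a matrix metalloproteinase that cleaves Cdh1, fell by 5.02 (loess -5.06) in SKP-derived cells and fell by 7.33 (loess -7.58) in nerve cells. Mmp9 fell by 3.20 (loess -3.24) in SKP-derived cells and fell by 2.81 (loess -3.31) in nerve cells, and the membrane-bound Mmp14 fell by 2.00 (loess -2.12) in SKP-derived cells and fell by 1.86 (loess -2.07) in nerve cells. Cbll1 (Hakai), a ubiquitin ligase for Cdh1, rose by 2.11 (loess 2.10) in SKP-derived cells and by 2.36 (loess 2.10) in nerve cells.

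Among 12 other genes of the cadherin superfamily, 3 rose and 3 fell in both comparisons with SKPs. This is 50% called in each, beside 39.1% and 37.2% of all genes. Celsr2, a cadherin of planar cell polarity, read 10.68, 9.42 and 10.79 in SKP-derived cells, 10.81, 10.69 and 10.54 in nerve cells, and 5.07, 5.38 and 5.42 in SKPs. It rose by 5.0 (loess 5.01) in SKP-derived cells and by 5.39 (loess 5.12) in nerve cells. The desmosomal cadherin Dsc3 fell by 3.09 (loess -3.21) in SKP-derived cells and fell by 2.54 (loess -3.26) in nerve cells. Dsc2, also a desmosomal cadherin, read 5.03, 5.48 and 4.82 in SKP-derived cells, 5.0, 5.20 and 5.13 in nerve cells, and 7.33, 6.48 and 9.59 in SKPs, and fell by 2.69 in both comparisons (loess -2.80 in SKP-derived cells and -3.39 in nerve cells). SKP array 3 was the highest for both desmocollins, Dsc3 having 8.62 there. The lower quartile of all features was 4.80 to 5.03 in SKP-derived arrays and 5.54 to 5.59 in nerve arrays. Dsc3 lay below it in both kinds of Schwann cell, and Dsc2 in nerve cells. The size of those falls rests partly on the low end of the scale.

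Nectins and nectin-like proteins are adhesion molecules of the immunoglobulin family, and of 8 measured, 4 rose and 2 fell in SKP-derived cells, while 4 rose and 1 fell in nerve cells. These are 75% and 62.5% called, beside 39.1% and 37.2% of all genes. Cadm4, the Schwann cell side of the contact with the axon along the internode, read 10.81, 9.51 and 10.32 in SKP-derived cells, 10.42, 10.37 and 11.14 in nerve cells, and 6.06, 6.10 and 6.31 in SKPs. It rose by 4.06 (loess 4.05) in SKP-derived cells and by 4.49 (loess 4.23) in nerve cells. Cadm3 rose by 4.56 (loess 4.54) in SKP-derived cells and by 6.20 (loess 5.94) in nerve cells, and Cadm1 rose by 1.55 (loess 1.57) in SKP-derived cells and by 1.85 (loess 1.57) in nerve cells. Nectin3 fell by 1.04 in both comparisons (loess -1.02 in SKP-derived cells and -1.31 in nerve cells).

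**Figure D4:**
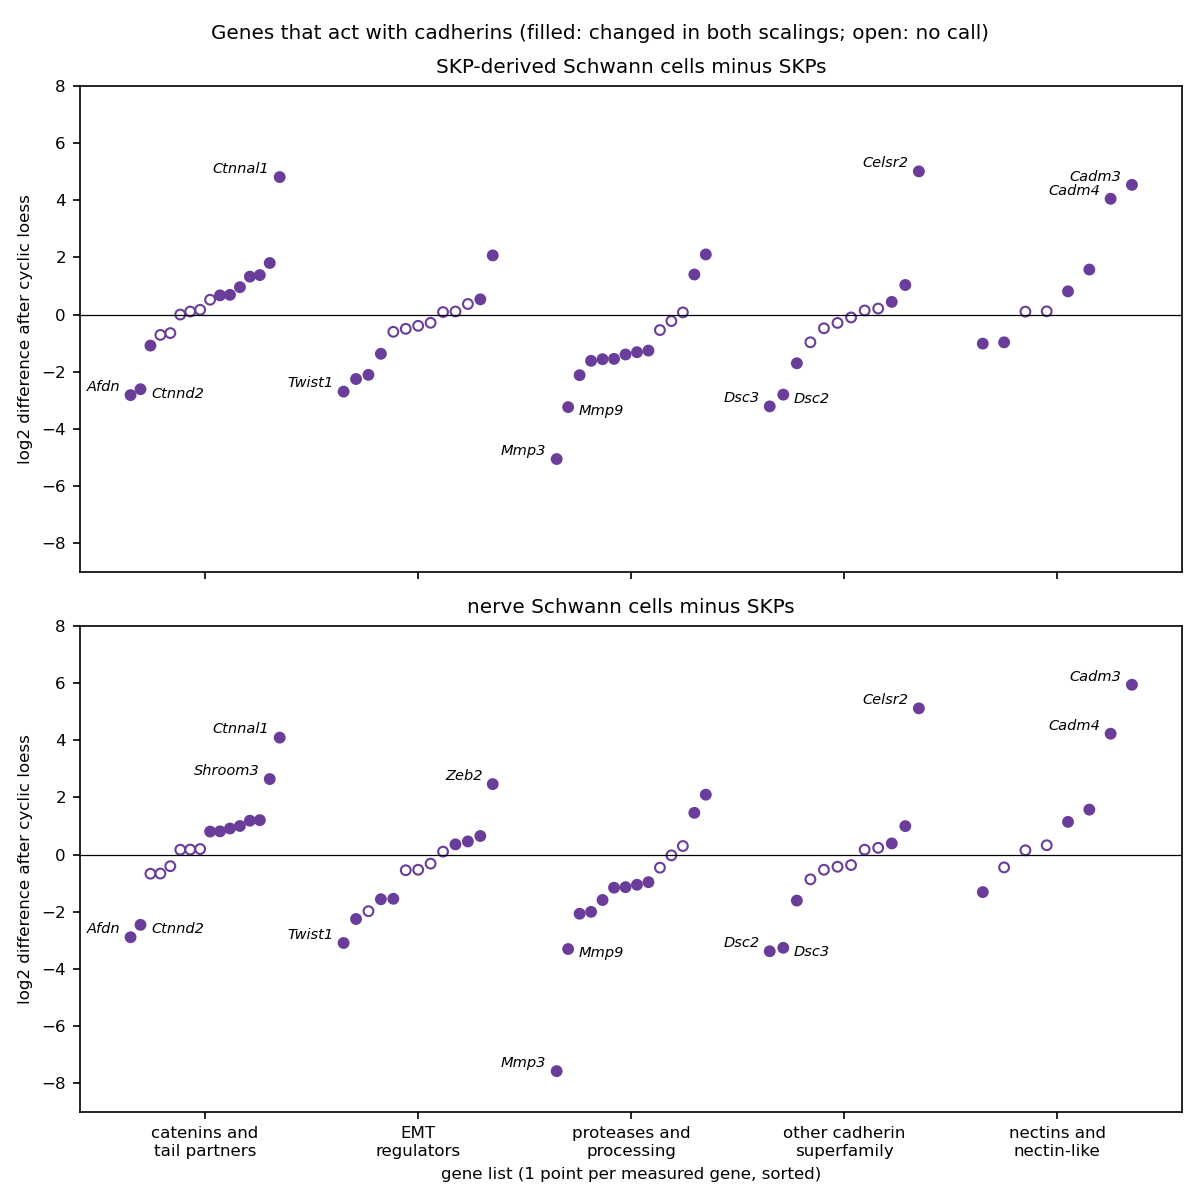
Log2 differences after cyclic loess (vertical axis) of the measured genes of 5 lists that act with cadherins (1 point per gene, sorted within each list), for SKP-derived Schwann cells minus SKPs and nerve Schwann cells minus SKPs. Filled points passed the test on both scales, with Celsr2, Ctnnal1, Cadm3 and Cadm4 at the top and Mmp3 at the bottom of both panels.

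The genes whose 9 deposited values, centred on their own mean, lay nearest to those of Cdh19 were Entpd2 at a Euclidean distance of 1.15, Erbb3 at 1.68, Igsf11 at 1.83, Cmtm5 at 1.84 and Plekhb1 at 2.02. Entpd2 is an enzyme that breaks down extracellular nucleotides, and Erbb3 is a receptor for neuregulin on Schwann cells. Entpd2 averaged 12.19 in SKP-derived cells, 13.02 in nerve cells and 5.93 in SKPs, and Erbb3 averaged 11.41 in SKP-derived cells, 12.26 in nerve cells and 4.78 in SKPs.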

How the data were processed

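RNA from 9 cultures was hybridised to Affymetrix Rat Gene 1.0 ST arrays. The deposited values are log2 probe-set levels, and the submitters' processing notes name RMA and Affymetrix Expression Console as their source, per the labels; whether all arrays were normalised together is not given in the sources used here. Scanner files were not analysed here. Of 29214 features, 15310 carry 1 gene symbol, 323 several and 13581 none; genes with several features (527) keep that of highest mean. All 33 members matched RefSeq by Entrez ID.

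limma 3.58.1 in R 4.3.3 was fitted to all 9 arrays with group as factor and no covariate, in the deposited scale and after cyclic loess on all features, with Benjamini-Hochberg adjustment over 14506 genes. The fit was tried on simulated data with equal spread in all groups and a constant shift of the SKP arrays. That setting lacks the low spread and the identical values of the nerve arrays, so it does not test their effect. Precision is limited by 3 arrays a group. The members and gene lists were chosen with earlier results of these data known. Named genes are the 6 members with the largest rise and fall per comparison, a fixed set of well-known cadherins, up to 4 changed genes per partner list, and the 5 genes most like Cdh19; further genes were named after their values were seen. Alternatives were other scalings, a 2-group fit, array weights, a replicate block, filters, thresholds and left-out arrays. Python 3.11.15 was used for promoter searches and figures.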

Additional observations from a re-analysis of the deposited data

How the results depend on the processing

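Of the 28 calls of members over the 3 comparisons, 26 were kept in every alternative in which single genes were followed. The exceptions were Cdh13 in SKP-derived minus nerve cells and Pcdhb8 in nerve cells minus SKPs. An adjusted p below 0.01, a difference of at least 2-fold, the mean of a gene's features and the filter on median level were followed by counts only. In SKP-derived cells minus SKPs, Pcdh7 (limma adjusted p = 0.0112) misses the first of these and Pcdhb20 (0.80) the second, among others. For nerve cells minus SKPs, 19 members were higher in the deposited scale alone and 5 once genes below the median level were left out, against 11 as reported, and 5 were lower after median centring alone, against 3. For SKP-derived cells minus SKPs, 5 were higher once genes below the median level were left out, against 10. For SKP-derived minus nerve cells, 11 were lower in the deposited scale alone, 2 with array weights and 1 without SKP-derived array 2 and SKP array 3, against 0, and 0 were higher at an adjusted p below 0.01, against 1. Leaving out each array in turn gave 10 to 12 higher and 3 to 4 lower in nerve cells minus SKPs, 10 to 13 higher and 3 to 4 lower in SKP-derived cells minus SKPs, and 0 to 1 higher and 0 to 2 lower in SKP-derived minus nerve cells. Cdh17, at 0.13 and not called in nerve cells minus SKPs, reversed to -0.49 after loess alone, -0.48 after median centring and -0.58 after quantile normalization, and passed in each. Over all genes, the deposited scale alone gave 7211 higher and 2158 lower in nerve cells minus SKPs and loess alone 3244 and 3716, against 3243 and 2156 on both scales; in SKP-derived minus nerve cells the deposited scale gave 193 and 6140 and loess 106 and 87, against 71 and 87. Sample numbers 1 to 3 recur in each group, and same-numbered arrays deviated together unevenly (correlations of -0.12 to 0.29). Between SKP-derived and nerve arrays these were 0.07, 0.29 and 0.15, against -0.27 to 0.18 for arrays of different number. Whether the number marks pairs was therefore not settled. With a replicate block 0 members were higher in SKP-derived minus nerve cells, where Cdh13 had limma adjusted p = 0.0692. The other counts stayed within 1.5 times those reported. The cause of these shifts was not tested. The filter on median level left 9 of the 33 members, so its counts are out of fewer genes. Precision is limited by 3 arrays a group, and no background measure was used.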
